A study of Mus musculus with 6 samples.

Results

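Dlk1, Meg3, Rian, Mirg, Rtl1, Peg3, Mest, Plagl1 and Grb10 are imprinted genes with known parts in growth. They were taken by name as 9 of the 35976 genes in the deposited RNA-seq tables, and the rule uses no measured value, though earlier results of these data were known when they were chosen. The libraries were made from cultured mouse satellite cells (SCs), the stem cells of skeletal muscle, with 3 libraries from NF-YA cKO and 3 from NF-YA fl/fl mice. Both genotypes carry a floxed Nfya gene, which encodes the DNA-contacting subunit of the CCAAT-binding factor NF-Y, and both received tamoxifen. NF-YA cKO mice additionally carry Pax7-CreERT2, a tamoxifen-dependent Cre recombinase driven from the Pax7 gene, so that the floxed part is removed in SCs. The labels give the mice an age of 5 to 7 weeks, and the methods of the study give 6 to 8 weeks and male animals. SCs were enriched by magnetic removal of other muscle cells and were collected after 4 days in growth medium.

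Imprinted genes are expressed mainly from the copy inherited from one parent. In the Dlk1-Dio3 domain of chromosome 12, the coding genes Dlk1, Rtl1 and Dio3 are expressed from the paternal copy, and the noncoding RNAs Meg3, Rian and Mirg, with the snoRNAs and miRNAs embedded in them, from the maternal copy. Peg3, Mest and Plagl1 are paternally expressed, and Grb10 is maternally expressed in most tissues. Domains of this kind are known for regulating growth before birth, and Dlk1 and the noncoding RNAs of its domain are known for roles in muscle and in SCs. The counts here do not separate the parental copies.

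None of the 9 genes was called higher or lower in NF-YA cKO SCs by edgeR's quasi-likelihood test. A call needs a false discovery rate (FDR, the Benjamini-Hochberg adjusted p over all tested genes) under 0.01 together with a log2 fold change whose size exceeds 1. All 9 were among the 17348 tested genes, of which 4.65% were called higher and 7.67% were called lower. At an unadjusted p under 0.05, 4 of the 9 genes passed (Meg3, Rtl1, Mest and Plagl1), against 48.7% of all tested genes. At an FDR under 0.05 of any size, 2 passed (Mest, lower, and Plagl1, higher), against 38.6%. DESeq2, another count model, called 2 of them lower, Meg3 and Mest, against 10.4% of all tested genes called lower by DESeq2, and limma on TPM called 0. Fold changes were below 0 for 8 of the 9 genes, with a median log2 fold change of -0.31 against -0.02 over all tested genes.

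In the NF-YA cKO libraries 22.3% to 34.2% of the Nfya counts fell on the authors' transcript entry for the deleted allele, which was at 0 in the 3 NF-YA fl/fl libraries. Depth lay between 26936230 and 41118984 expected counts per library, where 3 counts correspond to 0.0705 to 0.115 CPM (counts scaled to a common library size). Xist, the RNA of the inactive X chromosome of females, was at 836 to 852 CPM in NF-YA cKO and at 0.306 to 0.475 CPM in the NF-YA fl/fl libraries. The Y-linked genes Ddx3y, Kdm5d, Eif2s3y and Uty had at most 6 counts in an NF-YA cKO library and were at 37.3 to 88.6 CPM in the NF-YA fl/fl libraries, although the methods name male mice, so genotype and sex-linked expression cannot be told apart in any comparison here. The 12 macrophage markers summed to 136 to 264 CPM in NF-YA cKO and 6.41 to 15.8 CPM in the NF-YA fl/fl libraries, with Ptprc and C1qb at 0 in at least 1 library. The 10 measured markers of differentiated muscle summed to 633 to 1415 and 43989 to 53465 CPM, respectively, and the 8 markers of satellite cells and myoblasts to 1703 to 1845 and 2371 to 3995 CPM. Within this last list the genes went both ways: Des and Cdh15 were called lower, none was called higher, 4 of the 8 log2 fold changes were below 0, and the median was 0.36. The part of these differences in the values of the imprinted genes was not tested. In bulk libraries, fewer cells of a type and less RNA per cell cannot be told apart.

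NF-Y binds the sequence CCAAT, read as ATTGG on the other strand. Promoter windows of RefSeq (GRCm38.p6, 250 bases before to 50 after a transcript start) were found for 8 of the 9 genes, 12 windows in all. CCAAT or ATTGG lay in windows of 3 genes (Meg3, Mirg and Peg3), while 37.4% of all 32851 windows of this length hold one of these motifs. The 4 matches are shown because they are the places in these windows that hold the letters bound by the deleted factor. Sequence outside the windows was not searched. Each match is given with 12 bases on each side and the motif in capitals, 5′ to 3′ on the strand of the gene.
Meg3, chr12:109540884-109540912, plus strand: tcatttttccggCCAATcacttttagaga
Mirg, chr12:109734785-109734813, plus strand: tcggcccactacCCAATgctgtcccaccc
Peg3, first match, chr7:6730527-6730555, minus strand: aacagcagtctgATTGGcagggtgtggga
Peg3, second match, chr7:6730472-6730500, minus strand: atggggtcttggATTGGttagagaggaag
The motif began 100 bases before the Meg3 start, 184 bases before the Mirg start of RefSeq (109734981, which lies inside the longer Mirg span of GENCODE given with its values), and 124 and 69 bases before the Peg3 start. No match in the windows of Dlk1, Rian, Mest, Plagl1 and Grb10 says only that these letters are not in those windows. Of the promoters of genes called higher, 42.6% held a motif, and of those of genes called lower, 34.4%.

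Transcript abundance per length (TPM) ordered the genes from Peg3, with a mean of 152 over the 6 libraries, to Rtl1, with 1.48. Peg3 and Grb10 (151) did not differ beyond their spread, and Mest (83.8), Rian (32.0), Meg3 (20.1) and Plagl1 (13.9) followed, each overlapping its neighbour in the order over the libraries. The order differed between genotypes in places: Plagl1 (16.5 TPM) lay above Meg3 (12.2 TPM) in all NF-YA cKO libraries and below it (11.3 against 27.9 TPM) in all NF-YA fl/fl libraries, and Grb10 had a higher mean than Peg3 in NF-YA cKO (139 against 132 TPM) and a lower one in NF-YA fl/fl (164 against 173 TPM). The levels of Plagl1 and of the genes below it, Mirg (2.44), Dlk1 (1.93) and Rtl1 (1.48), did not overlap. Mirg, Dlk1 and Rtl1 overlapped one another. The 5 genes of the chromosome 12 domain among the 9 covered levels from 1.48 TPM for Rtl1 to 32.0 TPM for Rian.

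Dlk1 (chr12:109452823-109463336, plus strand; coordinates of the 9 genes are those of GENCODE M21 on GRCm38) encodes a transmembrane protein with EGF-like repeats that is related to the Notch ligands. Its level was 1.82, 1.74 and 3.17 CPM in NF-YA cKO replicates 1 to 3 and 2.83, 3.48 and 1.56 CPM in NF-YA fl/fl replicates 1 to 3. The groups overlapped, with NF-YA fl/fl replicate 3 the lowest and NF-YA cKO replicate 3 above 2 of the NF-YA fl/fl libraries. Its log2 fold change was -0.22 ± 0.38 (SE, n = 3 per genotype; FDR = 0.666, edgeR), and its 95% interval from -1.12 to 0.67 includes changes of more than 1.5-fold in both directions.

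Meg3 (chr12:109541001-109571726, plus strand) is the first of the maternally expressed noncoding RNAs of the domain and is known for binding polycomb proteins. It was at 42.4, 32.2 and 40.8 CPM in NF-YA cKO and at 65.3, 118 and 46.5 CPM in the NF-YA fl/fl libraries. Every NF-YA cKO library lay below every NF-YA fl/fl library, as it did for 26.2% of all tested genes. Across NF-YA fl/fl libraries the highest value was 2.54 times the lowest, and across NF-YA cKO libraries 1.32 times. The log2 fold change was -0.99 ± 0.33 (SE; 95% interval -1.77 to -0.22; FDR = 0.0501, edgeR), which misses both limits of a call. Without NF-YA fl/fl replicate 3, Meg3 was called lower (-1.26, FDR = 0.00582), as were 9.81% of the genes tested in that fit, and DESeq2 called it lower on all libraries (-1.02, adjusted p = 0.00952), while without NF-YA fl/fl replicate 2 the difference was -0.55 (FDR = 0.0651).

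Rian (chr12:109603940-109661716, plus strand) is the maternally expressed host of the box C/D snoRNAs of the domain. Its level was 102, 76.7 and 93.1 CPM in NF-YA cKO and 112, 149 and 37.7 CPM in the NF-YA fl/fl libraries. NF-YA fl/fl replicate 3 was the lowest of all 6 libraries and replicate 2 the highest, a range of 3.95 times, against 1.33 times within NF-YA cKO. For Rian the log2 fold change was -0.14 ± 0.44 (SE; 95% interval -1.18 to 0.91; FDR = 0.828, edgeR), turning to 0.27 without NF-YA fl/fl replicate 2.

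Mirg (chr12:109729764-109749460, plus strand) hosts the largest group of miRNAs in the domain. Levels were 1.59, 1.42 and 2.33 CPM in NF-YA cKO and 2.52, 4.58 and 1.83 CPM in the NF-YA fl/fl libraries. NF-YA cKO replicate 3 lay above NF-YA fl/fl replicate 3, and the other NF-YA cKO libraries lay below all NF-YA fl/fl libraries. The difference on the log2 scale was -0.74 ± 0.39 (SE; 95% interval -1.66 to 0.18; FDR = 0.171, edgeR), and it ranged from -1.02 to -0.29 when single libraries were left out.

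Rtl1 (chr12:109589193-109600330, minus strand), a gene derived from a retrotransposon, encodes a protein known for its part in the placenta and in fetal muscle. It was at 4.11, 3.52 and 5.24 CPM in NF-YA cKO and at 6.23, 13.5 and 6.31 CPM in the NF-YA fl/fl libraries. The groups did not overlap, as for 26.2% of all tested genes in this direction. NF-YA fl/fl replicate 2 was more than 2 times as high as any other library. The log2 fold change was -1.02 ± 0.35 (SE; 95% interval -1.84 to -0.19; FDR = 0.0568, edgeR), or -0.55 without NF-YA fl/fl replicate 2 (FDR = 0.0872).

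The Rtl1 span also contains 6 miRNA genes on the opposite strand, transcribed from the maternal copy, whose miRNAs match the Rtl1 RNA in full because they lie across from it. Whether strand was used in counting is not given in the sources used here. Mest and Copg2, which overlap on opposite strands, had no whole expected count in any library. Their fractions completed each other, as with 1935.92 and 1477.08 in NF-YA cKO replicate 1, as when reads are divided between genes. Reads of Rtl1 and of RNA from the opposite strand may thus not be told apart, and the value of Rtl1 is uncertain in that sense. Reference mature sequences (RefSeq, GRCm38.p6) for 5 of these genes are shown with the seed, bases 2 to 8, in capitals.
mmu-miR-431-5p: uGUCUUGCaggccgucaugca
mmu-miR-433-3p: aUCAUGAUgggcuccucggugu
mmu-miR-127-3p: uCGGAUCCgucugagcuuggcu
mmu-miR-434-3p: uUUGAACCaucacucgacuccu
mmu-miR-136-5p: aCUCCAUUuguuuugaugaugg
No seed is shared among these, nor among all 11 mature sequences of the 6 genes. The lncRNA 6430411K18Rik (chr12:109591537-109592851 in RefSeq, GRCm38.p6) lies within the Rtl1 span as well, and its log2 fold change was -1.29 ± 0.63 (SE; FDR = 0.149, edgeR). The ratio of Rtl1 to 6430411K18Rik counts was 9.17 ± 3.50 in NF-YA cKO and 9.16 ± 3.36 in NF-YA fl/fl libraries (SD, n = 3). Neither gene had a whole expected count in any library (129.15 and 19.85 in NF-YA cKO replicate 1). The ratio may therefore depend partly on how shared reads were divided between them.

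**Figure D1:**
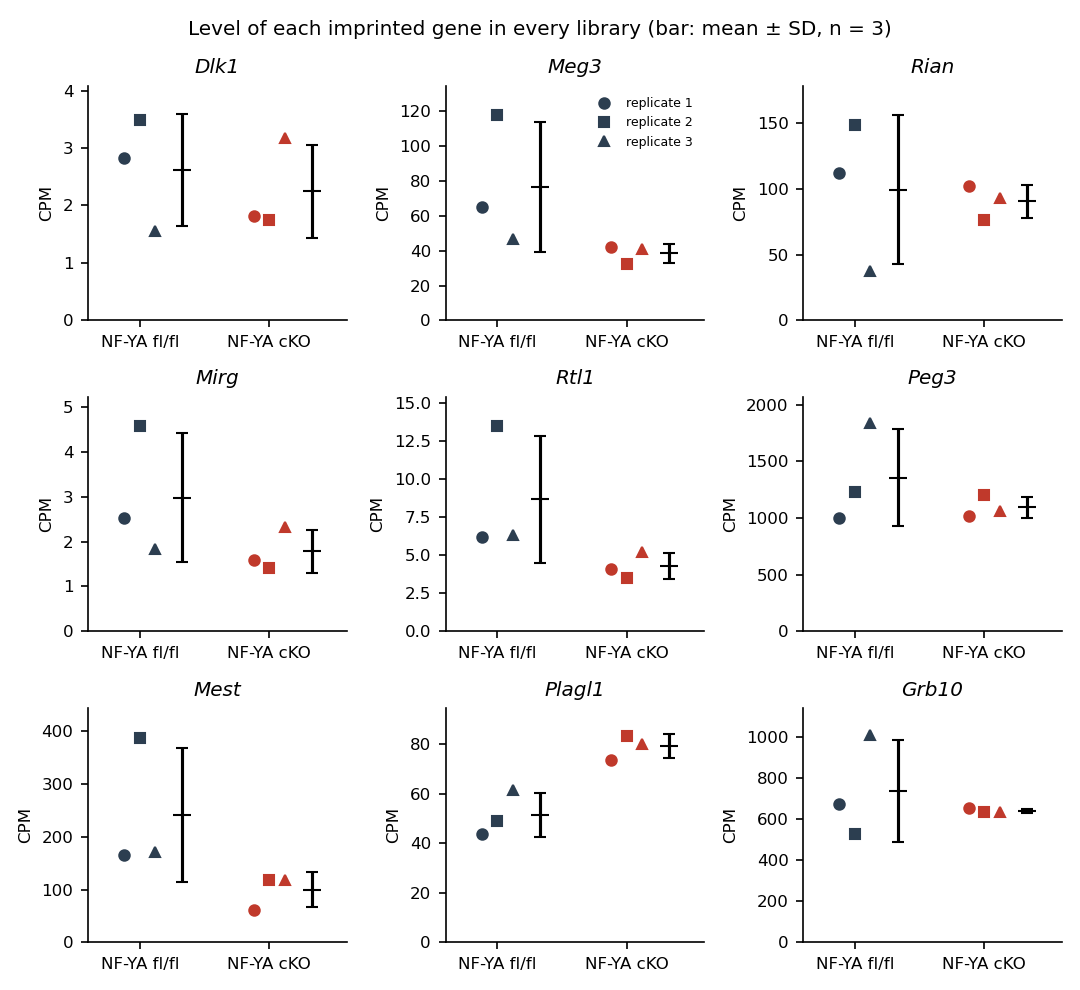
Level in CPM (vertical axes, from 0) of each of the 9 imprinted genes in the NF-YA fl/fl (dark) and NF-YA cKO (red) libraries, a point per library with its replicate number as the symbol, and mean ± SD beside them (n = 3). NF-YA fl/fl replicate 2 (squares) is highest for Dlk1, Meg3, Rian, Mirg, Rtl1 and Mest, and only Meg3, Rtl1, Mest and Plagl1 have no overlap between the genotypes. Of all tested genes, 26.2% have no overlap with NF-YA cKO lower and 29.1% with NF-YA cKO higher.

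Within NF-YA fl/fl, replicate 2 was the highest library for 6 of the 9 genes (all 5 of the domain and Mest) and replicate 3 the lowest for 4 of them (Dlk1, Meg3, Rian and Mirg). Rtl1 and Mest were lowest in replicate 1. The sum of the 12 markers of fibro-adipogenic progenitors and fibroblasts was also highest in replicate 2 and lowest in replicate 3. It was 3847, 4726 and 1496 CPM in NF-YA fl/fl replicates 1 to 3 and 3263 to 3817 CPM in NF-YA cKO libraries. Macrophage (11.5, 15.8 and 6.41 CPM) and endothelial marker sums (13.3, 13.5 and 12.1 CPM) had the same order in NF-YA fl/fl. Sums of satellite cell and myoblast (2925, 2371 and 3995 CPM) and Schwann cell markers (164, 119.9 and 211 CPM) had the reverse order. The remaining marker lists had other orders. Between genotypes the fibro-adipogenic and fibroblast markers went both ways: 2 were called higher and 0 lower, against 4.65% and 7.67% of all tested genes. Of their 12 log2 fold changes 7 were below 0, and the median was -0.27. Pdgfra, the receptor that defines fibro-adipogenic progenitors, measured 132, 147 and 21.6 CPM in NF-YA fl/fl replicates 1 to 3 and 77.7 to 104 CPM in NF-YA cKO libraries. Dcn, another marker of this list, measured 28.8, 28.3 and 9.26 CPM in NF-YA fl/fl replicates 1 to 3 and 68.3 to 76.3 CPM in NF-YA cKO libraries. No marker of this list was at 0 in any library. Its part in the spread of the domain was not tested. Leaving NF-YA fl/fl replicate 3 out, the log2 fold changes were -0.49 for Dlk1, -1.26 for Meg3, -0.53 for Rian and -1.21 for Rtl1, Mirg reached an FDR of 0.0440 (edgeR), and Meg3 was the only one called. Leaving NF-YA fl/fl replicate 2 out, they were 0.03 for Dlk1, -0.55 for Meg3, 0.27 for Rian, -0.29 for Mirg and -0.55 for Rtl1, and none was called.

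For Meg3 and Rian, neighbours expressed from the same parental copy, the ratio of counts within a library is given as a description. It was 0.416, 0.419 and 0.438 in NF-YA cKO libraries. In NF-YA fl/fl libraries it was 0.582, 0.793 and 1.23. The NF-YA cKO libraries lay within 0.416 to 0.438 and below every NF-YA fl/fl library, while the NF-YA fl/fl libraries spread widely, with means of 0.425 ± 0.0118 and 0.870 ± 0.333 (SD, n = 3) and a log2 difference of -0.97. The exact two-sided permutation test gave p = 0.1, the smallest that 3 against 3 libraries allow. With TPM in place of counts the means were 0.430 and 0.956, again without overlap. The pair was chosen after its values were seen. Among the 36 pairs of the 9 genes, 8 ratios did not overlap between genotypes, a smaller share than the 53.5% of all pairs of tested genes with counts in every library, and 6 of the 8 pairs involved Plagl1. The other pair without Plagl1 was Dlk1 to Mirg, with 1.24 ± 0.113 in NF-YA cKO and 0.911 ± 0.188 in NF-YA fl/fl libraries (SD, n = 3; exact permutation p = 0.1), and the pair overlapped in TPM.

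The Dlk1-Dio3 neighbourhood, from the start of Wars to the end of Dio3 on chromosome 12, held 85 other genes of the tables, 71 of them with no count in any library. Of the 61 miRNA genes among the rows, 2 had a count in any library, at most 1, so that their level was not detectable in these libraries. Of the 6 tested neighbours, 0 were called by edgeR or by DESeq2, and Dio3 was called lower without NF-YA fl/fl replicate 3. On the Dlk1 side, Wars, a tRNA synthetase gene, had a log2 fold change of 0.24 ± 0.16, Wdr25 of -0.08 ± 0.17 and Begain of -0.59 ± 0.32 (SE; FDR = 0.274, 0.743 and 0.188, edgeR). At the far end, Dio3, which encodes the deiodinase that inactivates thyroid hormone, was at 0.255, 0.0724 and 0.118 CPM in NF-YA cKO and at 0.765, 1.16 and 0.204 CPM in the NF-YA fl/fl libraries. NF-YA cKO replicate 1 lay above NF-YA fl/fl replicate 3, so the genotypes overlapped. Its log2 fold change was -2.30 ± 0.73 (SE; FDR = 0.0439, edgeR), and -2.76 without NF-YA fl/fl replicate 3 (FDR = 0.00467), with NF-YA cKO replicates 2 and 3 near the level of 3 counts.

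**Figure D2:**
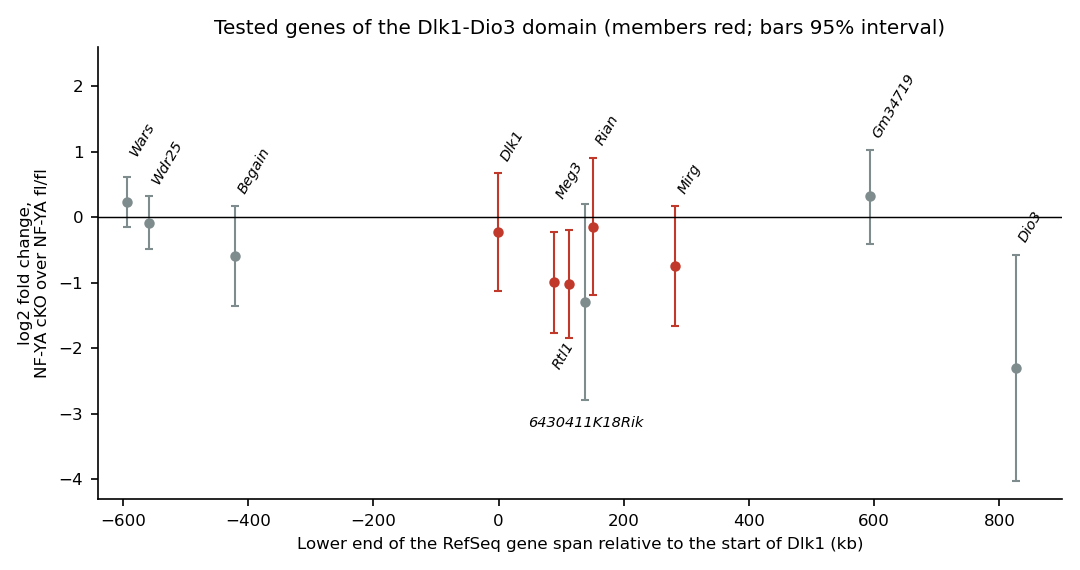
Log2 fold change of NF-YA cKO over NF-YA fl/fl (vertical axis) of the tested genes of the Dlk1-Dio3 neighbourhood, placed by the distance in kb of the lower end of their RefSeq span from the start of Dlk1 (horizontal axis), with 95% intervals not adjusted for multiple tests. The intervals of Meg3, Rtl1 and Dio3 lie below 0, and those of Dlk1, Rian, Mirg, 6430411K18Rik and the outer genes Wars, Wdr25, Begain and Gm34719 include 0.

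Mest (chr6:30723547-30748465, plus strand) encodes an enzyme of the alpha/beta hydrolase fold and is known as a marker of growing mesoderm and fat. It was at 61.7, 118 and 119 CPM in NF-YA cKO and 165, 387 and 170.4 CPM in the NF-YA fl/fl libraries. The groups did not overlap, as for 26.2% of all tested genes in this direction. NF-YA fl/fl replicate 2 was more than 2 times as high as the other NF-YA fl/fl libraries, and NF-YA cKO replicate 1 was the lowest. The log2 fold change of -1.28 ± 0.40 (SE; 95% interval -2.23 to -0.32; FDR = 0.0436, edgeR) was the largest in size among the 9 genes and exceeded the limit of 1 but not that of the FDR. DESeq2 called Mest lower (-1.30, adjusted p = 0.00434), and without NF-YA fl/fl replicate 2 the difference was -0.76 (FDR = 0.0819). Copg2, the coatomer gene that lies against Mest, had a log2 fold change of -0.37 ± 0.16 (SE; FDR = 0.103, edgeR). The ratio of Copg2 to Mest counts overlapped between genotypes, at 0.512 ± 0.219 and 0.300 ± 0.157 (SD, n = 3; exact permutation p = 0.3). Neither gene had a whole expected count in any library, as when reads are divided between genes, so their values and this ratio may not be fully separate.

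Peg3 (chr7:6703892-6730431, minus strand) encodes a zinc finger protein known to act in cell death and TNF signalling and to be expressed in SCs. It was the most abundant of the 9 genes by count, at 1016, 1199.6 and 1065 CPM in NF-YA cKO and 1001, 1232 and 1834 CPM in the NF-YA fl/fl libraries. The groups overlapped, and NF-YA fl/fl replicate 3 stood above the rest. For Peg3 the log2 fold change was -0.31 ± 0.22 (SE; 95% interval -0.84 to 0.22; FDR = 0.309, edgeR), or -0.03 without NF-YA fl/fl replicate 3. Usp29, which shares the promoter region of Peg3, had a ratio to Peg3 counts that differed by less than the spread between libraries, 0.00420 ± 0.000276 in NF-YA cKO and 0.00422 ± 0.000474 in NF-YA fl/fl libraries (SD, n = 3; exact permutation p = 0.9). Zim1, the maternally expressed zinc finger gene next to Peg3, was called lower. It was at 26.6, 33.1 and 32.6 CPM in NF-YA cKO and 72.4, 83.4 and 159 CPM in the NF-YA fl/fl libraries, with a log2 fold change of -1.77 ± 0.30 (SE; FDR = 0.00492, edgeR), and the FDR was 0.0205 to 0.0233 when any 1 NF-YA cKO library was left out. The ratio of Zim1 to Peg3 counts was 0.0262, 0.0276 and 0.0306 in NF-YA cKO and 0.0723, 0.0677 and 0.0869 in NF-YA fl/fl libraries, without overlap (exact permutation p = 0.1, n = 3).

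Plagl1 (chr10:13060504-13131694, plus strand), also known as Zac1, encodes a zinc finger transcription factor that can halt the cell cycle. It was the only one of the 9 genes whose level was higher in all NF-YA cKO libraries, at 73.7, 83.2 and 80.1 CPM, than in all NF-YA fl/fl libraries, at 43.9, 48.9 and 61.3 CPM. Among all tested genes, 29.1% had this separation. Plagl1 had a log2 fold change of 0.62 ± 0.14 (SE; 95% interval 0.29 to 0.95; FDR = 0.0129, edgeR), or 1.54-fold, under the size that a call needs. It lay between 0.51 and 0.76 over the 16 other fits and had an FDR under 0.05 in 13 of them. Plag1, its paralog and a growth-promoting transcription factor, was called lower, at 5.90, 5.91 and 6.77 CPM in NF-YA cKO against 17.0, 19.6 and 15.7 CPM in the NF-YA fl/fl libraries (log2 fold change -1.49 ± 0.15, SE; FDR = 0.000730, edgeR). Plagl2 had a log2 fold change of -0.72 ± 0.21 (SE; FDR = 0.0337, edgeR).

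Grb10 (chr11:11930508-12038683, minus strand) encodes an adaptor protein that binds and restrains the insulin and IGF1 receptors. It was at 652, 634 and 632 CPM in NF-YA cKO and 672, 525 and 1009.9 CPM in the NF-YA fl/fl libraries. The NF-YA cKO libraries lay within 1.03 times of one another, and the NF-YA fl/fl libraries spread on both sides of them over 1.92 times. The log2 fold change was -0.20 ± 0.23 (SE; 95% interval -0.74 to 0.34; FDR = 0.512, edgeR), or 0.09 without NF-YA fl/fl replicate 3. Both genes that flank it were called lower, Ddc, the decarboxylase of dopamine and serotonin synthesis, by 2.65 and Cobl, an actin nucleator, by 2.64 on the log2 scale. Cobl was at 8.32, 6.85 and 8.41 CPM in NF-YA cKO and 48.0, 29.0 and 70.4 CPM in the NF-YA fl/fl libraries, with an SE of 0.32 (FDR = 0.00150, edgeR, or 0.0117 without NF-YA cKO replicate 2). The ratio of Cobl to Grb10 counts was 0.0123 ± 0.00131 in NF-YA cKO and 0.0655 ± 0.00882 in NF-YA fl/fl libraries (SD, n = 3; exact permutation p = 0.1), without overlap.

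**Figure D3:**
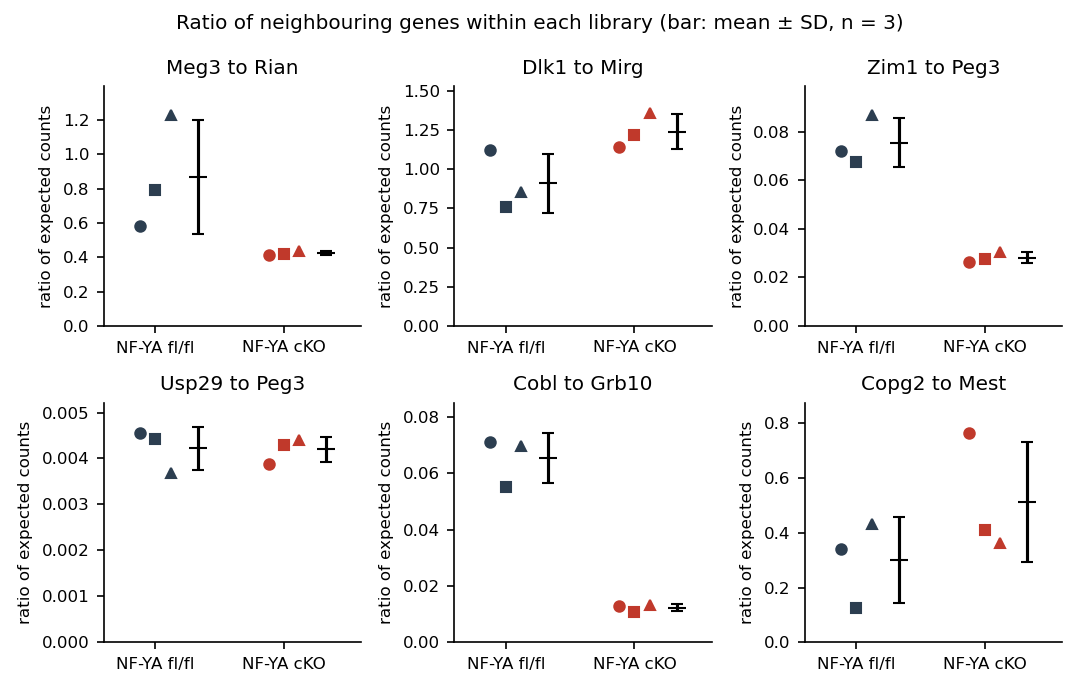
Ratio of expected counts of 2 genes of the same chromosome within each library (vertical axes, from 0), for NF-YA fl/fl (dark) and NF-YA cKO (red), with replicate number as the symbol (circle 1, square 2, triangle 3) and mean ± SD beside the points (n = 3). Other genes lie between Dlk1 and Mirg. Meg3 to Rian, Dlk1 to Mirg, Zim1 to Peg3 and Cobl to Grb10 do not overlap between genotypes, while Usp29 to Peg3 and Copg2 to Mest do. Dlk1 to Mirg overlaps in TPM. Of all pairs of tested genes with counts in every library, 53.5% do not overlap.

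The tables list 29 transcripts of the 9 genes, and 4 genes (Rian, Mirg, Rtl1 and Plagl1) have a single one. The share of a gene's counts was tested for the 10 transcripts with a mean share of at least 10% in genes with at least 100 counts in every library, which belonged to Meg3, Mest, Peg3 and Grb10. The smallest adjusted p was 0.667 (exact two-sided permutation test, Benjamini-Hochberg over the 10 transcripts), and the design cannot give a raw p below 0.1. In Meg3, the long NR_003633.3, which starts inside the gene, took 47.8 ± 1.26% of the counts in NF-YA cKO and 40.8 ± 7.52% in NF-YA fl/fl libraries (SD, n = 3), and the 1913 nt NR_027652.1, which starts at the gene's own promoter, took 42.9 ± 2.98% and 46.7 ± 6.97%. The long NR_027651.2 was the only tested transcript without overlap, at 9.32 ± 1.73% and 12.5 ± 0.595%, and it overlapped when shares were taken from TPM. Grb10 counts fell mostly on NM_010345.4, at 91.6 ± 0.746% and 89.8 ± 1.67%.

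For Mest, the transcript from the upstream start, NM_001252293.1, took 13.5%, 36.2% and 19.6% of the counts in NF-YA cKO replicates and 22.6%, 28.0% and 0% in NF-YA fl/fl replicates. NF-YA fl/fl replicate 3 had 98.0% of its Mest counts on NM_008590.2, the main form, against 60.1% to 79.4% in the other libraries. NM_001252292.1, which starts close to the main form and is under the limit of 10%, was at 4.87%, 2.79% and 4.90% in NF-YA cKO and 0% to 0.765% in NF-YA fl/fl libraries, a separation chosen after its values were seen and not tested. These shares are estimates, since reads common to several transcripts are divided by a model.

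**Figure D4:**
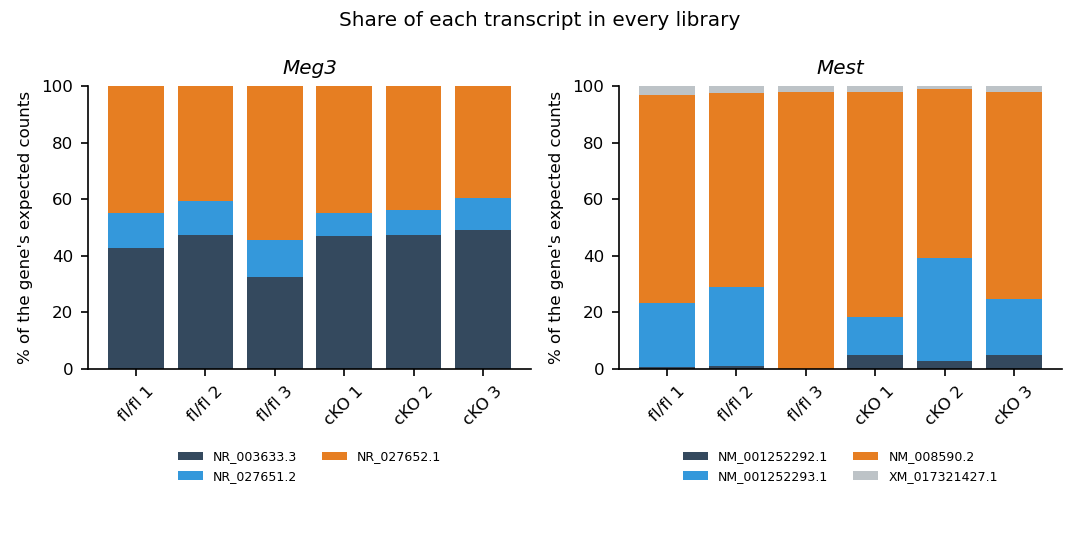
Share of each transcript in the expected counts of Meg3 (left) and Mest (right), in percent (vertical axes), stacked for each of the 6 libraries. In Meg3, NR_003633.3 and NR_027652.1 make up most of every library, and in Mest NF-YA fl/fl replicate 3 has 0% of NM_001252293.1.

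Other imprinted genes were measured for the same comparison, 54 tested of 70 listed. Of these, 14 were called lower and 1 higher, or 25.9% lower against 7.67% of all tested genes, and 39 were not called; their median log2 fold change was -0.34. Igf2, the growth factor of the insulin family, fell from 820.3, 634 and 3228 CPM in NF-YA fl/fl to 10.7, 15.2 and 23.5 CPM in NF-YA cKO libraries (log2 fold change -6.56 ± 0.80, SE; FDR = 0.00155, edgeR). H19, the noncoding RNA beside Igf2 and expressed from the other parental copy, fell by 2.98 and Cdkn1c, the cell cycle inhibitor p57, fell by 3.58 on the log2 scale. Igf2r, the receptor that clears IGF2, fell by 1.37 and Airn, the noncoding RNA that overlaps it in antisense, fell by 1.99. Expected counts of both were whole in every library, so they show no reads divided between this pair. Counting without strand could still assign a read to the wrong gene of the pair. Zdbf2 (-3.35), Gatm (-1.87) and Herc3 (-1.88) were also called lower. Some of these calls fell short of the FDR limit with 1 library left out: Igf2 without NF-YA cKO replicate 2 (FDR = 0.0132, edgeR), and H19, Herc3 and Gatm without any 1 of the NF-YA cKO libraries or without NF-YA fl/fl replicate 1 (FDR of up to 0.0195, 0.0312 and 0.0129). On all libraries, Herc3 was also not called with the replicate block (-1.83, FDR = 0.0194, edgeR) or by limma on TPM (adjusted p = 0.0317 and 0.0426). Peg12 was the only one called higher by edgeR, at 21.1, 25.7 and 23.9 CPM in NF-YA cKO against 9.17, 10.9 and 10.1 CPM in the NF-YA fl/fl libraries (log2 fold change 1.23 ± 0.13, SE; FDR = 0.00101, edgeR, or 0.0104 without NF-YA cKO replicate 2). DESeq2 called 3 higher, with Dcn (1.69) and Ano1 (1.34) besides Peg12, and 14 lower, and without NF-YA fl/fl replicate 3 edgeR called 2 higher, Peg12 and Dcn. Dcn, a proteoglycan gene that is also among the fibroblast markers, had a log2 fold change of 1.71 on all libraries (FDR = 0.0145, edgeR).

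**Figure D5:**
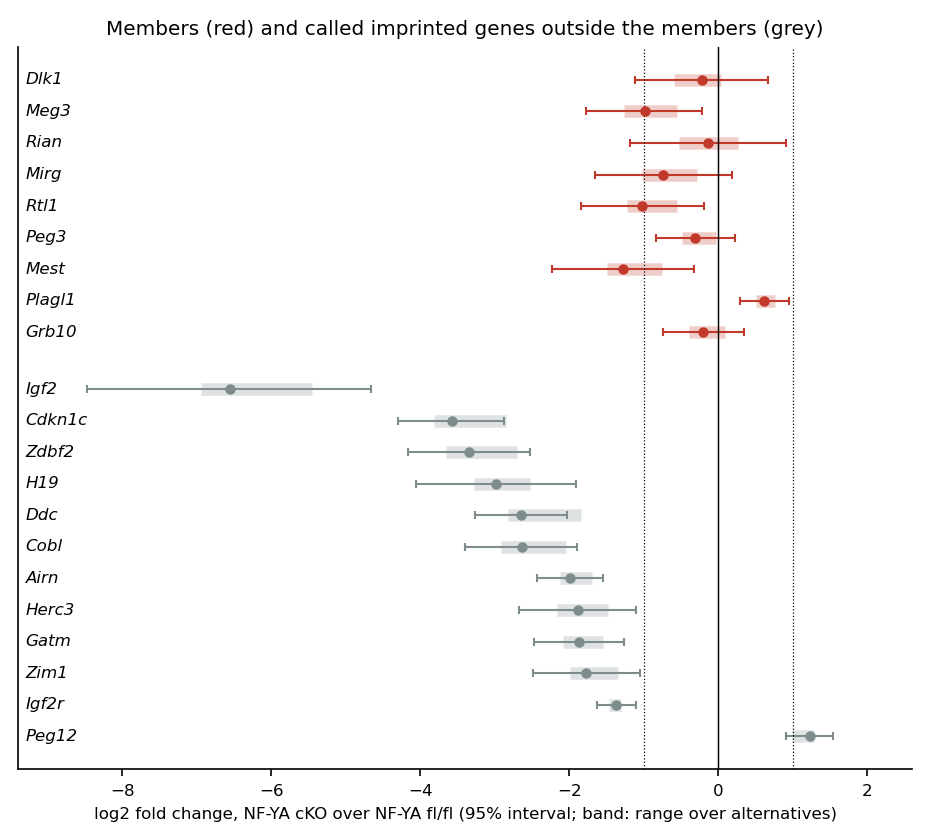
Log2 fold change of NF-YA cKO over NF-YA fl/fl (horizontal axis) with 95% intervals not adjusted for multiple tests, for the 9 genes (red) and for 12 called imprinted genes outside them (grey), and a band for the range over the 16 other fits. The 12 have the largest change, and were chosen by it, among those with a mean of at least 1 CPM in a genotype. The 9 genes lie between -1.28 (Mest) and 0.62 (Plagl1), and the bands of Dlk1, Rian and Grb10 cross 0.

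Of 14 genes that maintain imprints, 13 were tested, 2 were called higher and 0 lower by edgeR (DESeq2 also 2 and 0), against 4.65% and 7.67% of all tested genes. At an FDR under 0.05 of any size there were 6 higher and 3 lower, against 38.6% of all tested genes in either direction. Dnmt1, the maintenance DNA methyltransferase, was at 306, 322 and 308 CPM in NF-YA cKO and 125, 185 and 107 CPM in the NF-YA fl/fl libraries (log2 fold change 1.16 ± 0.20, SE; FDR = 0.00494, edgeR), and its FDR was 0.0225 to 0.0295 without any 1 of the NF-YA cKO libraries or without NF-YA fl/fl replicate 1. Uhrf1, which guides Dnmt1 to newly copied DNA, was called higher as well (1.52 ± 0.18, SE; FDR = 0.00140, edgeR, or 0.0116 without NF-YA cKO replicate 2). Trim28, Ctcf and Smchd1 passed the FDR limit but not that of size, with log2 fold changes of 0.67, 0.54 and 0.70 (FDR = 0.00188, 0.00412 and 0.00467, edgeR). Zfp57, the zinc finger protein that reads methylated imprints, had a log2 fold change of -0.50 ± 0.17 (SE; FDR = 0.0498, edgeR).

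Of 12 partners of the 9 genes, 2 were called higher and 1 lower, against 4.65% and 7.67% of all tested genes. Insr, the insulin receptor bound by Grb10, was at 37.2, 35.8 and 38.5 CPM in NF-YA cKO and 79.8, 58.7 and 104 CPM in the NF-YA fl/fl libraries (log2 fold change -1.12 ± 0.20, SE; FDR = 0.00567, edgeR), and without NF-YA fl/fl replicate 3 its change of -0.90 was under the limit. The FDR of Insr was 0.0220 to 0.0284 without any 1 of the NF-YA cKO libraries or without NF-YA fl/fl replicate 1. Igf1r, the other receptor bound by Grb10, had a log2 fold change of -0.83 ± 0.14 (SE; FDR = 0.00451, edgeR). Siah1b, a ubiquitin ligase gene of the family that acts with Peg3, was called higher by 1.31 ± 0.14 (SE; FDR = 0.000962, edgeR, or 0.0109 without NF-YA cKO replicate 2). Ezh2, the polycomb methyltransferase that binds Meg3, was called higher by 1.06 ± 0.10 (SE; FDR = 0.000662, edgeR), though its change fell to the limit of 1 without NF-YA fl/fl replicate 1, and its partners Eed and Suz12 had log2 fold changes of 0.57 and 0.36. Among 10 relatives of the 9 genes, 8 were tested, and edgeR called Plag1 alone, while DESeq2 called Ldoc1l lower as well (-1.01). Dlk2, the closest relative of Dlk1, was at 9.37, 10.4 and 8.48 CPM in NF-YA cKO and 2.06, 3.42 and 12.9 CPM in the NF-YA fl/fl libraries, with NF-YA fl/fl replicate 3 above all others, and had a log2 fold change of 0.62 ± 0.62 (SE; FDR = 0.453, edgeR). Without that library Dlk2 was called higher (1.76, FDR = 0.00164) and Grb14, a relative of Grb10, lower (-1.14, FDR = 0.00675).

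Over the 6 libraries, the genes whose log2 CPM was most like that of Dlk1 among 9903 genes were Tubb3, Mgp, Dcaf4, Galnt10 and Pmp22, with Pearson's r between 0.915 and 0.989. Those most like Meg3 were Adgrl1, Epha1, Emsy, Glis2 and Peak1os, with r between 0.989 and 0.995. Among the 9 genes, Meg3 was most like Rtl1 (r = 0.954) and Mirg (0.943), followed by Mest (0.818), which lies outside the domain. It was less like Dlk1 (0.672) and Rian (0.559) and opposite to Plagl1 (-0.830). Dlk1 was most like Mirg (0.845). These values describe 6 points that share genotype and libraries, and carry no test.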

How the data were processed

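RNA-seq (TruSeq Stranded Total RNA, 500 ng, paired reads of 75 nt) was done on 3 samples of each genotype, grouped by the labels, which do not say whether replicates are separate mice; p-values measure the spread between these libraries. The authors aligned reads to mm10 transcripts with Bowtie2 and estimated abundance with RSEM. The deposited expected counts are neither normalized nor filtered, and need not be whole because shared reads are divided between transcripts. TPM, as deposited, was scaled to transcript length by the authors' software and keeps no depth, and the deposited percent of the gene's TPM per transcript was an alternative for shares.

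After rounding, a gene was tested if 2 or more libraries held over 10 of its counts. The genotypes were compared by the quasi-likelihood test of edgeR 4.0.16 in R 4.3.3, with TMM factors and no covariate. CPM values use TMM-scaled library sizes, and an SE is the log2 fold change divided by the square root of F. On simulated counts for this comparison, 180 of 200 changed genes (90%) and 0 of 16769 unchanged genes were called, out of 16969 tested. The 90% is a total over those 200 genes. Recovery at log2 fold changes of the size measured for the 9 genes was not tested, and the 90% is not a value for them. Alternatives were DESeq2 1.42.0, its size factors, library totals, other filters, unrounded counts, limma 3.58.1 on log2(TPM + 1) and log2(TPM + 0.1), other call limits, the replicate block and leaving out each library. Count ratios, and the reading of the fits without NF-YA fl/fl replicate 3, were added after seeing the data.

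The 9 genes, the gene lists and the tests were chosen with earlier results of these data known. From the lists, called genes at 1 CPM or more were eligible to be named, up to 12 per list by size of change; likeness to Dlk1 and Meg3 gave 5 genes each, at 10 CPM or more, on log2(CPM + 0.5). Other genes named (Copg2, Usp29, Trim28, Ctcf, Smchd1, Zfp57, Plagl2, Dlk2, Igf1r, Eed, Suz12, Pdgfra, Des, Cdh15, Dcn, Ano1, Ldoc1l and Grb14) were chosen after their values were seen.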

Additional observations from a re-analysis of the deposited data

How the results depend on the processing

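Of the 9 genes, 0 were called higher under every alternative. DESeq2 called 2 lower (Meg3 and Mest), an FDR under 0.05 called 1 (Mest), and leaving out single libraries gave 0 to 1 (Meg3 without NF-YA fl/fl replicate 3). Leaving out single libraries moved the log2 fold change of Dlk1 between -0.59 and 0.03, of Rian between -0.53 and 0.27 and of Grb10 between -0.40 and 0.09. The sign turned for Dlk1 and Rian without NF-YA fl/fl replicate 2, for Grb10 without NF-YA fl/fl replicate 3, and for Rian with the replicate block (0.06), and for none of the 9 genes under another scaling, filter or unit. The cause was not tested. Over all tested genes, 806 were called higher and 1331 lower. These counts were 97 and 510 when tested against a minimum change of 1 on the log2 scale, 231 and 704 with limma on log2(TPM + 1), and 361 and 1067 on log2(TPM + 0.1). An FDR under 0.05 gave 1163 and 2025. Leaving out single libraries gave 177 to 890 higher and 523 to 1684 lower. All 306 alternative values of the 18 other called genes kept their direction, and 53 were no longer past the call limits. Replicate numbers did not pair the libraries: deviations of libraries with the same number correlated at 0.165, -0.0693 and 0.0527, and with the replicate block 625 genes were called higher and 947 lower, with 0 of the 9 genes among them. The biological coefficient of variation was 0.310 among NF-YA fl/fl and 0.105 among NF-YA cKO libraries. The miRNA genes were below the 0.0705 to 0.115 CPM that 3 counts correspond to. Dio3 was near that level in NF-YA cKO replicates 2 and 3 (0.0724 and 0.118 CPM) and above it in replicate 1 (0.255 CPM).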
